A study of Mus musculus with 4 samples.

Results

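Genes of the S100 proteins and annexins were measured by RNA-seq of whole mouse kidneys 3 days after injury, and no member differed between the genotypes by the test used. The members were S100a4, S100a6, S100a8, S100a9, S100a10, S100a11, Anxa1, Anxa2, Anxa3 and Anxa5, chosen by name, and they made up 10 of the 54078 features in the table. Levels were given as FPKM, fragments scaled by the length of the gene and by a total set for each library, and all 10 members had a mean of at least 0.5 FPKM, as did 15414 genes in all. S100a4 reached that mean only through its values in the knockout libraries.

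The WT group was Apela flox/flox mice without Cre, and the ApelaKsp KO group was littermates of the same floxed genotype that carried Ksp-Cre, a recombinase driven by the Ksp-cadherin promoter of renal tubular epithelial cells. Apela encodes ELABELA, a peptide ligand of the apelin receptor, and cells other than Ksp-cadherin-expressing tubule cells kept the gene. All mice were adult males. The labels give the strain as C57BL/6 x 129S4/SvJae, while the paper's methods give a C57BL/6 background for the floxed and the Cre mice. In all mice both kidneys were clamped for 30 min and collected on day 3 after reperfusion. Each group had 2 libraries, each made from a pool of 3 mice, so an SD or a p-value here describes the spread between pools. No uninjured library was analysed here, so the values compare injured with injured kidneys and give no effect of the injury itself. Some mice die in this bilateral model by day 3 according to the methods, so the pools hold survivors. The paper reports a significantly lower survival of ApelaKsp KO mice at that time. Whether selection by survival differs between the pools was not tested.

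The libraries had 16045724 to 16927742 reads on genes, recovered from the steps in the FPKM values, and 5.20% to 6.45% of them fell on mitochondrial genes. The totals that the FPKM values were scaled by were others, 16071739, 17203609, 16727839 and 16237848 for WT replicates 1 and 2 and KO replicates 1 and 2, so that reads on genes were 1.01, 0.933, 1.01 and 1.03 times these totals. Apela was measured at 5.27 and 4.57 FPKM in the WT libraries and at 0.536 and 0.245 FPKM in the ApelaKsp KO libraries, from 85, 79, 9 and 4 reads. Its log2 fold change of -2.62 had an adjusted p of 0.466 in limma with Benjamini-Hochberg adjustment, the smallest adjusted p in the table, which 29 genes shared. The design text of the series names adipose tissue, while the labels name kidney. The summed FPKM of 5 kidney markers was 1023 to 1581 and that of 5 adipose markers was at most 0.405.

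S100 proteins are small calcium-binding proteins that work mostly as dimers, and each subunit carries a pair of helix-loop-helix motifs called EF-hands. Annexins are cytosolic proteins that bind acidic phospholipids of membranes when calcium rises, and several of them take an S100 dimer as a partner. S100A10 joins annexin A2 in a heterotetramer, S100A11 binds annexin A1, and S100A8 and S100A9 form calprotectin, which neutrophils and monocytes hold in large amounts and release as an alarm signal. In kidney, several of these genes are known for their expression in injured tubules, in fibroblasts and in infiltrating leukocytes.

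The S100 members can be told apart in the loop that binds calcium in the second EF-hand, the classical one. Its coding sequence is shown for each of the 6 members because S100a10, the member with the smallest unadjusted p below, has other residues there than the other 5. Sequences are from the main transcript of each gene in GENCODE M21 (GRCm38), 5′ to 3′ on the coding strand, and capitals mark the codons for loop positions 1, 3, 5 and 12.
S100a4: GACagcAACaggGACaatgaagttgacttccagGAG
S100a6: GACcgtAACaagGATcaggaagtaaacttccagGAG
S100a8: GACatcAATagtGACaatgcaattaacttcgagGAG
S100a9: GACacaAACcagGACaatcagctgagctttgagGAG
S100a10: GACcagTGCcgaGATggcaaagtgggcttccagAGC
S100a11: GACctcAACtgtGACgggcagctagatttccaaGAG
The loop of S100a10 encodes cysteine at position 3 and serine at position 12, and the other 5 loops encode asparagine and glutamate at these positions. S100A10 is known as the S100 protein that keeps an active shape without calcium. Over the whole coding sequence, pairs of S100 members were 46.4% to 57.8% identical and pairs of annexin members were 50.2% to 57.6% identical.

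The members covered an 845-fold range of mean FPKM. S100a11 (ENSMUSG00000027907, chromosome 3, 93520488 to 93526287, GRCm38) was the highest, at 443 and 534 FPKM in WT and 567 and 544 FPKM in ApelaKsp KO, and it ranked 42 of the 15414 genes by mean level. S100a10 followed with a mean of 164 FPKM over the 4 libraries, then S100a6 with 126 FPKM, Anxa5 with 99.1 FPKM and Anxa2 with 65.1 FPKM. Anxa3 (31.5 FPKM), Anxa1 (12.9 FPKM), S100a9 (7.77 FPKM) and S100a8 (6.03 FPKM) were lower, and S100a4 was the lowest at 0.618 FPKM. The ranges over libraries overlapped between S100a10 and S100a6, S100a6 and Anxa5, Anxa1 and S100a9, and S100a9 and S100a8, so these neighbours did not differ beyond their spread over libraries. Within libraries the order of the first 3 of these pairs held in 4 of 4, and S100a9 was above S100a8 in 3 of 4. The other neighbours did not overlap, though Anxa5 (lowest 84.8 FPKM) and Anxa2 (highest 84.0 FPKM) came close.

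**Figure D1:**
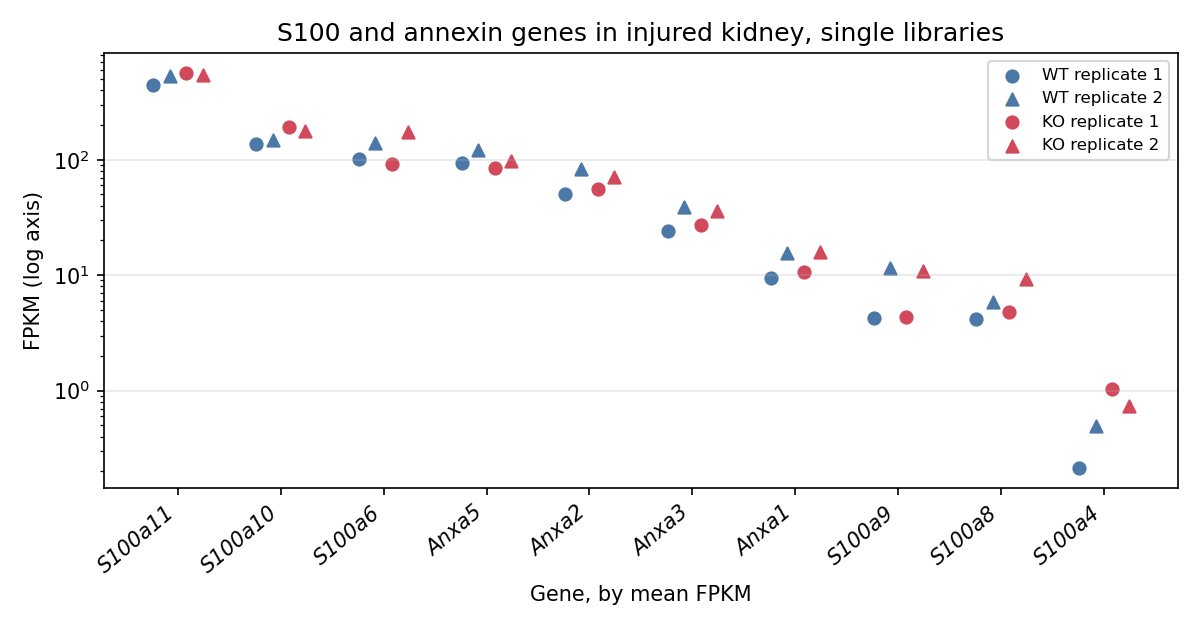
FPKM of the 10 members on a log axis, with 1 point for each library (blue WT, red ApelaKsp KO, circle replicate 1, triangle replicate 2) and genes ordered by their mean. S100a11 sits at 443 to 567 FPKM and S100a4 at 0.213 to 1.02 FPKM, and most other genes show a wider gap between the 2 libraries of a group than between the groups.

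FPKM divides by the length of all exons of a gene, which for Anxa2 was 3731 bases while its main transcript has 1447 bases. Divided by the main transcript length instead, a choice made after seeing the data, Anxa2 rose from a mean of 65.1 to 168 and changed places with Anxa5 (102), S100a8 (8.61) passed S100a9 (7.82), and the other 6 members kept their places. The fragments selected for sequencing were mostly 370 to 420 bases long, and the main transcripts of S100a4, S100a8, S100a9 and S100a11 have 498, 486, 519 and 511 bases, so few fragment positions exist on them. Dividing by another length changes no ratio between libraries for the same gene.

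S100a4 (ENSMUSG00000001020, chromosome 3, 90603771 to 90606045), also called fibroblast-specific protein 1, binds non-muscle myosin and is used as a marker of fibroblasts and some macrophages. It was measured at 0.213 and 0.498 FPKM in WT and at 1.02 and 0.738 FPKM in ApelaKsp KO. These values rest on 2, 5, 10 and 7 reads. Both KO libraries were above both WT libraries, but the 95% Poisson intervals, which cover counting error only and take reads as independent molecules, ran from 0.0258 to 0.770 and from 0.162 to 1.16 FPKM in WT and from 0.491 to 1.88 and from 0.297 to 1.52 FPKM in KO, and they overlapped. The ratio of the summed reads per depth, KO over WT, was 2.45 with an exact 95% interval of 0.966 to 6.99. On the log2(FPKM + 0.5) scale the difference was 0.70 (SE 0.29), with an adjusted p of 0.786 in limma.

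The low level of S100a4 is also uncertain because another annotated gene lies over it. A protein-coding gene on the same strand, Gm42674 (chromosome 3, 90601904 to 90605885), covers 302 of the 498 bases of the main S100a4 transcript, or 60.6%, which leaves 196 bases that belong to S100a4 alone. Gm42674 itself was listed with 0 reads in all 4 libraries. How reads on shared bases were counted is not given in the sources used here, and their part in the level of S100a4 was not tested.

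**Figure D2:**
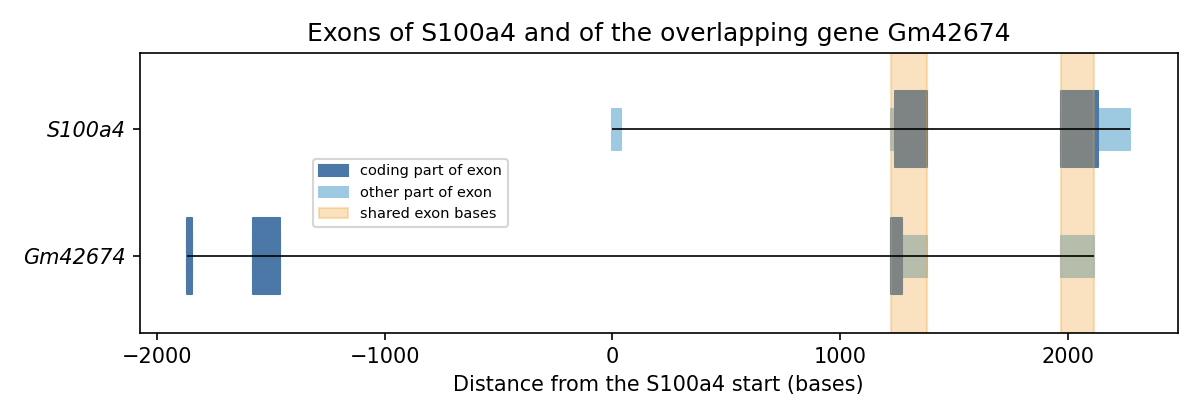
Exons of S100a4 and Gm42674 drawn to scale by distance in bases from the start of S100a4, with coding parts tall and dark and shared bases in orange. The overlap takes 302 of the 498 bases of the main S100a4 transcript.

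S100a10 and S100a11 were, with S100a4, the members whose values in both ApelaKsp KO libraries lay above both WT values. No gene passed an adjusted p of 0.05 in limma, 0% of those tested, so no member did, and 6.32% of all genes tested had an unadjusted p under 0.05, 974 genes in limma and 970 with voom weights. Among the 10 members this held for S100a10 alone. Both KO libraries were above both WT libraries in 19.7% of all genes tested and below both in 18.1%, against 3 and 0 of the members, so this count is not a result about the members. The median log2 fold change was 0.095 over the members and 0.0071 over all genes tested. With 1 library left out the median over the members ranged from -0.20 to 0.40. Without S100a4, which entered through its KO values, 2 of 9 members lay above and the median was 0.092.

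S100a10 (ENSMUSG00000041959, chromosome 3, 93555080 to 93564643), the light chain of the annexin A2 heterotetramer, brings plasma membrane channels and plasminogen to the cell surface. It was measured at 137 and 147 FPKM in WT and at 191 and 179 FPKM in ApelaKsp KO. The groups did not overlap, with 142 ± 7.23 FPKM in WT and 185 ± 8.71 FPKM in KO (mean ± SD, n = 2 pools), a ratio of 1.30. The log2 fold change was 0.38 (SE 0.14), with an unadjusted p of 0.048 and an adjusted p of 0.785 in limma, and 16.5% of all genes tested had a larger change in either direction. Its spread between replicates was small, with a pooled SD of 0.0706 on the log2 scale, and 83.7% of genes had a larger one. With any 1 library left out the difference stayed between 0.33 and 0.43 and its unadjusted p was no longer under 0.05. Scaled by reads on genes, a choice made after seeing the data, the difference was 0.31 with an unadjusted p of 0.111 in limma.

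S100a11 binds annexin A1 and is expressed in many epithelia. Its means were 489 ± 64.1 FPKM in WT and 555 ± 15.7 FPKM in ApelaKsp KO (mean ± SD, n = 2 pools), a ratio of 1.14. The higher WT value, 534 FPKM, lay just under the lower KO value, 544 FPKM, and the groups overlapped when scaled by reads on genes. The log2 fold change was 0.19 (SE 0.20, adjusted p = 0.878 in limma). Of 462 stretches of 50 bases in its main transcript, 190 (41.1%) also occur in 3 processed pseudogenes, of which Gm12854 was listed at 27.6 to 32.6 FPKM and Gm7665 at 23.9 to 31.7 FPKM, so the level of S100a11 is uncertain to the extent that reads were shared with these copies. No such stretch was shared by the other members except S100a4 with Gm42674.

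S100a6 (ENSMUSG00000001025, chromosome 3, 90612882 to 90624181), known as calcyclin, is a gene of growing and injured epithelial and stromal cells. It was measured at 101 and 139 FPKM in WT and at 92.0 and 173 FPKM in ApelaKsp KO. The lowest and the highest value were both KO, so the groups overlapped, and the log2 fold change was 0.09 (SE 0.36, adjusted p = 0.972 in limma). Leaving out 1 library moved it from -0.36 to 0.55.

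S100a8 (ENSMUSG00000056054, chromosome 3, 90668978 to 90670035) and S100a9 (ENSMUSG00000056071, chromosome 3, 90692632 to 90695721) encode the subunits of calprotectin. S100a8 was measured at 4.21 and 5.86 FPKM in WT and at 4.82 and 9.23 FPKM in ApelaKsp KO, from 47, 70, 56 and 104 reads. S100a9 was measured at 4.29 and 11.5 FPKM in WT and at 4.35 and 10.97 FPKM in ApelaKsp KO, from 36, 103, 38 and 93 reads. For both genes the replicate 2 library of each group was higher than its replicate 1 library, and the groups overlapped. The log2 fold change was 0.39 (SE 0.34, adjusted p = 0.853 in limma) for S100a8 and -0.02 (SE 0.61, adjusted p = 0.997 in limma) for S100a9. Without KO replicate 1 the difference of S100a8 was 0.83, where the spread comes from the WT pools and the KO arm is 1 library, while without KO replicate 2 it was -0.041.

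The gap between replicates was wider than the gap between groups for S100a9, at 2.67-fold in WT and 2.52-fold in ApelaKsp KO. The 95% Poisson intervals, for counting error alone, ran from 3.01 to 5.94 and from 9.36 to 13.9 FPKM in the WT libraries and from 3.08 to 5.97 and from 8.86 to 13.4 FPKM in the KO libraries. The pooled replicate SD of S100a9 on the log2 scale was 0.906, and only 1.99% of all genes tested had a larger one. The ratio of S100a8 to S100a9 was 0.982 and 0.511 in WT and 1.11 and 0.841 in KO.

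Neutrophil markers were read beside calprotectin. The summed FPKM of 11 such markers, a list that leaves out S100a8 and S100a9, was 4.03 and 8.31 in WT and 4.08 and 11.3 in ApelaKsp KO. Ly6g, Mpo, Elane and Camp had 0 reads in every library, and the sum was led by Csf3r, the receptor for granulocyte colony-stimulating factor (1.24, 3.41, 1.47 and 1.76 FPKM), Retnlg (1.23, 1.24, 0.688 and 6.38 FPKM) and Mmp9, a matrix metalloproteinase of neutrophil granules (1.02, 2.55, 0.878 and 1.58 FPKM). The sum was thus higher in replicate 2 of both groups, with Retnlg giving most of the rise in KO and Csf3r and Mmp9 most of that in WT. The 4 markers high enough to be tested, these 3 and Cxcr2, a chemokine receptor (0.163, 0.763, 0.569 and 0.707 FPKM), were each higher in replicate 2 in WT and in KO, with median ratios of 2.62 and 1.52, while Retnlg was nearly level in WT. Mmp8 (0.308, 0.240, 0.370 and 0.686 FPKM) and Ltf (0.0721, 0.101, 0.104 and 0.0714 FPKM), both too low to be tested, were each higher in replicate 2 in 1 group alone. Of the 4 tested, 2 were higher and 2 lower in KO, and none passed the test. Cxcr2, one of the higher, reached the mean of 0.5 FPKM only through its KO values. Their part in the values of S100a8 and S100a9 was not tested. In whole kidney, fewer cells of a type and less RNA per cell cannot be told apart.

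**Figure D3:**
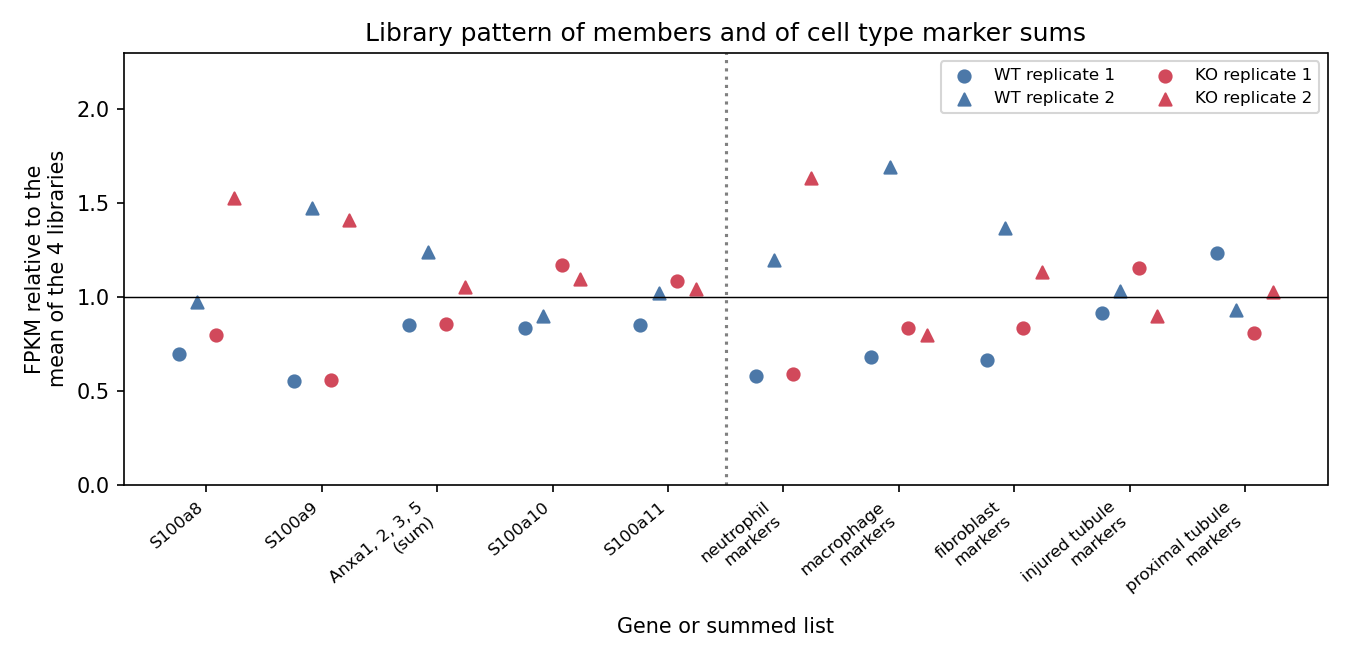
FPKM in each library divided by the mean of the 4 libraries, for S100a8, S100a9, the sum of the 4 annexins, S100a10 and S100a11 and for the sums of 5 marker lists (blue WT, red ApelaKsp KO, circle replicate 1, triangle replicate 2). S100a9, the annexin sum and the neutrophil and fibroblast sums are higher in replicate 2 than in replicate 1 of both groups, while S100a10 and S100a11 are higher in replicate 2 in WT alone.

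All 4 annexin members were higher in replicate 2 than in replicate 1 of each group, and none separated the genotypes. Anxa2 (ENSMUSG00000032231, chromosome 9, 69453620 to 69491795), the partner of S100A10 and a cell-surface binding site for plasminogen, was measured at 50.01 and 83.97 FPKM in WT and at 55.7 and 70.6 FPKM in ApelaKsp KO. The KO values lay between the WT values, and the log2 fold change was -0.05 (SE 0.29, adjusted p = 0.983 in limma). Anxa3 (ENSMUSG00000029484, chromosome 5, 96793339 to 96845966) was measured at 24.1 and 38.6 FPKM in WT and at 27.5 and 35.7 FPKM in KO, again with KO inside the WT range (log2 fold change 0.04, SE 0.27, adjusted p = 0.987 in limma).

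Anxa1 (ENSMUSG00000024659, chromosome 19, 20373428 to 20390944) encodes an anti-inflammatory protein that glucocorticoids induce and that signals through formyl peptide receptors. It was measured at 9.40 and 15.7 FPKM in WT and at 10.7 and 15.9 FPKM in ApelaKsp KO, a log2 fold change of 0.10 (SE 0.31, adjusted p = 0.963 in limma). Anxa5 (ENSMUSG00000027712, chromosome 3, 36448923 to 36475894) encodes the protein used to stain phosphatidylserine on dying cells. It was measured at 93.7 and 121 FPKM in WT and at 84.8 and 97.4 FPKM in KO. The groups overlapped, the means were 107 ± 19.1 and 91.1 ± 8.89 FPKM (SD, n = 2 pools), and the log2 fold change of -0.23 (SE 0.18, adjusted p = 0.844 in limma) was the lowest of the members.

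**Figure D4:**
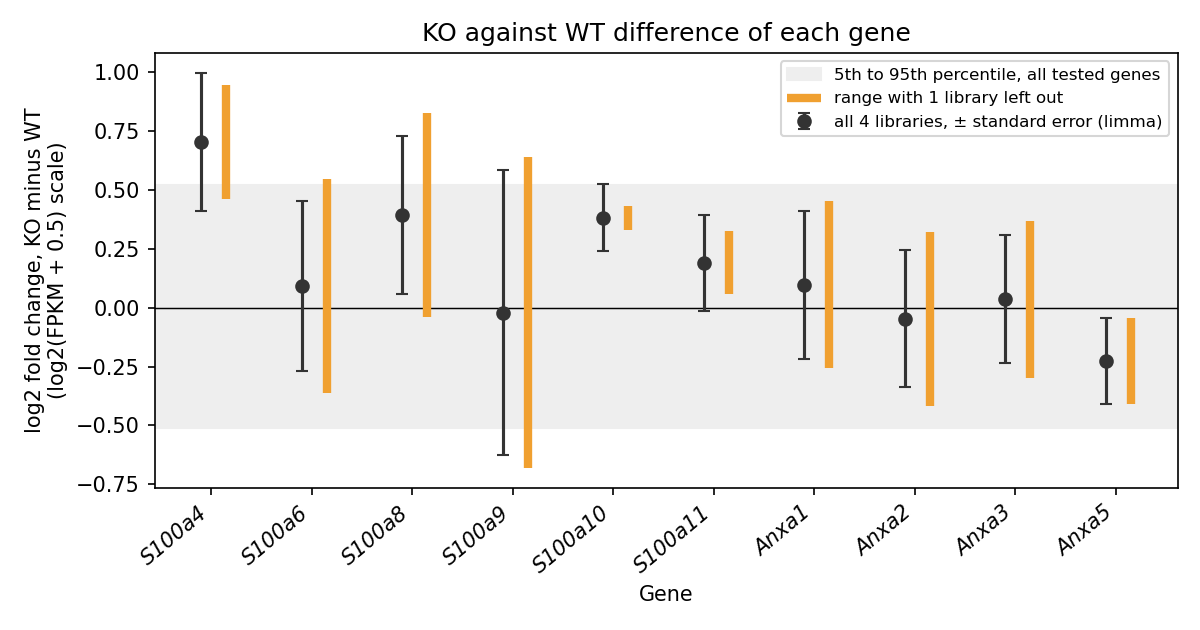
Log2 fold change of each member, ApelaKsp KO over WT on the log2(FPKM + 0.5) scale, with bars of 1 limma SE and orange lines for the range when 1 library is left out. The grey band holds the 5th to 95th percentile of all genes tested, -0.51 to 0.52, and S100a4 at 0.70 is the only member outside it.

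The groups thus overlapped for 7 of the 10 members. Of all genes tested, 19.7% lay above and 18.1% below in both KO libraries and the rest overlapped. The count of 7 is therefore not a result about the members. The pools of a group differed in a shared order. The replicate 2 library was higher than replicate 1 for all 10 members in WT, against 49.2% of all genes tested, and for 7 of the 10 in ApelaKsp KO, against 50.7%. The exceptions in KO were S100a4, S100a10 and S100a11, the members in which both KO libraries were above both WT libraries. The median ratio of replicate 2 to replicate 1 over the members was 1.496 in WT and 1.28 in KO, against 0.996 and 1.00 over all genes tested, and the median replicate SD was 0.395 on the log2 scale against 0.161. Replicate numbers only name the pools here, and the labels give them no date or batch.

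Markers of stromal cells and leukocytes were read in the same libraries. The summed FPKM of the 4 annexins was 177 and 259 in WT and 179 and 220 in ApelaKsp KO, that of 8 fibroblast markers was 183 and 376 in WT and 230 and 313 in KO, and that of 12 macrophage markers was 189 and 470 in WT and 231 and 221 in KO. Replicate 2 was higher for all 8 fibroblast markers in WT and for 5 of the 8 in KO. In KO, Acta2 of contractile stromal cells (60.6 and 124.9 FPKM) gave most of the rise in the sum, while Pdgfra (7.85 and 6.35 FPKM), Dcn and Lum were lower in replicate 2. Of the 8, Dcn and Lum lay below both WT libraries in both KO libraries, beside 18.1% of all genes tested, and none lay above both, beside 19.7%. Lum reached the mean of 0.5 FPKM only through its WT values. Of the 11 macrophage markers tested, all were higher in replicate 2 in WT and 3 in KO, and 9 of the 11 had a lower mean log2 level in KO than in WT without passing the test, beside 7497 of the 15414 genes tested. Of the 11 tested, 3, all among these 9, lay below both WT libraries in both KO libraries, beside 18.1% of all genes tested. In the sum only WT replicate 2 stood above KO. The sums of 6 endothelial markers were 147 and 167 in WT and 214 and 219 in KO, a gap given mostly by Plvap (103, 110, 161 and 152 FPKM). All 6 had a higher mean log2 level in KO, beside 7917 of the 15414 genes tested. In both KO libraries 3 of the 6, Plvap, Kdr and Tie1, lay above both WT libraries, beside 19.7% of all genes tested. When scaled by reads on genes, Kdr and Tie1 overlapped between the groups and Plvap stayed apart. Replicate 2 was higher for all 6 in WT and for 4 of the 6 in KO. The sums of 6 proximal tubule markers were 1992 and 1499 in WT and 1308 and 1662 in KO. In both KO libraries Lrp2, Slc34a1 and Slc5a2 lay below both WT libraries and Slc22a6 above both, beside 18.1% and 19.7% of all genes tested. Replicate 2 was higher for 0 of the 6 in WT and for 4 of the 6 in KO. Of these lists, Plvap (0.011, higher in KO) and Dcn (0.036), Lrp2 (0.039) and Slc5a2 (0.028), all lower in KO, had unadjusted p-values under 0.05 in limma. This held for 6.32% of all genes tested. No gene of these lists passed the test, and the part of these cell types in the annexin values was not tested.

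Of the 11 injured tubule markers, 5 lay in both ApelaKsp KO libraries above both WT libraries, as S100a10 and S100a11 did, and Cd44 (3.96, 8.92, 3.53 and 2.76 FPKM) lay below both, beside 19.7% and 18.1% of all genes tested. The 5 were Lcn2, Krt8, Krt18, Krt19 and Krt20, a secreted iron-binding protein and 4 keratins. As deposited, Krt18 was at 54.77 FPKM in WT replicate 2 and at 54.83 FPKM in KO replicate 1. When scaled by reads on genes, a choice made after seeing the data, Krt8, Krt18, Krt19 and S100a11 overlapped between the groups. Lcn2, Krt20 and S100a10 stayed apart. Lcn2 was measured at 133 and 95.2 FPKM in WT and at 249 and 273 FPKM in KO, with an unadjusted p of 0.0030 in limma, and Krt20 at 35.6 and 36.8 FPKM in WT and at 59.97 and 61.04 FPKM in KO, with an unadjusted p of 0.0016 in limma. Neither passed after adjustment. Havcr1, which encodes kidney injury molecule 1, was measured at 210.4 and 393 FPKM in WT and at 249 and 105 FPKM in KO, and its groups overlapped. The summed FPKM of the list, 8334 and 9422 in WT and 10550 and 8178 in KO, was mostly Spp1, osteopontin (7026, 7789, 8961 and 6872 FPKM). Replicate 2 was higher than replicate 1 for 10 of the 11 markers in WT and for 7 of the 11 in KO, with median ratios of 1.17 and 1.03. The part of injured tubule cells in the values of the members, S100a10 and S100a11 included, was not tested.

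The ratio of S100a10 to Anxa2, which encode the subunits of one complex, was 2.74 and 1.75 in WT and 3.43 and 2.53 in ApelaKsp KO. The ratio of S100a11 to Anxa1 was 47.2 and 34.04 in WT and 53.0 and 34.2 in KO. For both ratios replicate 1 was the higher library in each group and the groups overlapped, so the partners did not keep a fixed proportion of RNA from pool to pool.

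No other gene of the S100 and annexin families passed the test either. Of 18 listed, 17 had reads and 10 were high enough to be tested, of which 8 were higher and 2 lower in ApelaKsp KO, none passing the test, with a median log2 fold change of 0.073. Replicate 2 was higher than replicate 1 for 6 of these 10 in WT and 5 of 10 in KO, with median ratios of 1.05 and 1.07. S100g, which encodes calbindin-D9k, a calcium carrier of the distal tubule, had the widest difference of those named, at 357 and 156 FPKM in WT and 599 and 351 FPKM in KO. Its groups overlapped, and the log2 fold change was 0.96 (SE 0.49, adjusted p = 0.798 in limma), from 0.36 without WT replicate 2 to 1.55 without WT replicate 1. Anxa4, an annexin of epithelial cells, was measured at 23.3 and 24.3 FPKM in WT and at 35.7 and 26.7 FPKM in KO, with both KO libraries higher (log2 fold change 0.37, SE 0.17, adjusted p = 0.797 in limma). Its groups overlapped when scaled by reads on genes.

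S100a1, a calcium sensor best known in muscle, was as abundant as the higher members, at 268 and 206 FPKM in WT and 234 and 280 FPKM in ApelaKsp KO. Among the rest with a mean of at least 5 FPKM, S100a13, S100a16, Anxa6, Anxa7 and Anxa11 had log2 fold changes of 0.05, 0.02, -0.14, 0.07 and 0.08, and the groups overlapped in each. Anxa9, named after its values were seen, was measured at 2.88 and 3.06 FPKM in WT and at 2.11 and 2.05 FPKM in KO, with an unadjusted p of 0.0257 in limma and no call after adjustment.

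Receptors, targets and partners of the members were read from a list of 26 genes, of which 24 had reads and 21 were tested. Of these, 8 were higher and 13 lower in ApelaKsp KO, none had an adjusted or an unadjusted p under 0.05 in limma, and the median log2 fold change was -0.12. Both KO libraries were above both WT libraries for 3 of them and below for 5, beside 19.7% and 18.1% of all genes tested. Plau, the urokinase that activates plasminogen, was measured at 301 and 387 FPKM in WT and at 237 and 288 FPKM in KO, below both WT libraries (log2 fold change -0.38, SE 0.22, adjusted p = 0.798 in limma).

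Trpv5, a calcium channel of the distal tubule that S100A10 and annexin A2 carry to the membrane, was measured at 15.004 and 15.54 FPKM in WT and at 14.8 and 10.3 FPKM in ApelaKsp KO (log2 fold change -0.30, adjusted p = 0.816 in limma). Cd36, a fatty acid transporter and scavenger receptor, was measured at 160 and 71.3 FPKM in WT and at 301 and 146 FPKM in KO (log2 fold change 0.97, SE 0.53, adjusted p = 0.798 in limma), and its groups overlapped. Fpr2, the receptor of annexin A1, was low at 0.384 and 0.359 FPKM in WT and at 0.461 and 0.855 FPKM in KO, from 8, 8, 10 and 18 reads. It reached the mean of 0.5 FPKM only through its KO values, so its place among the genes higher in KO was favoured by that filter.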

How the data were processed

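Poly-A RNA of 4 libraries (2 per group, each a pool of 3 mice) was sequenced by a company. The values deposited by the authors are FPKM in a single table, and the submitters' processing notes name HISAT2 2.0.5 and mm10 (GRCm38.p6). The counting tool, its annotation and its use of strand are not given in the sources used here. Gene lengths and names are in the table. Gene models and sequences were read from GENCODE M21, whose gene starts and ends both equal those of the table for 97.1% of 53620 shared genes. Exon lengths can still differ, and for Anxa1 the table gives 2608 bases while these models give 2911.

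Multiplying FPKM by length gave whole reads (within 0.01 read) for 100% of values, which gave 16045724 to 16927742 reads on genes and exact Poisson intervals, scaled to FPKM by the totals the steps imply (16071739 to 17203609). How those totals were set is not given in the sources used here. Genes with a mean of at least 0.5 FPKM (15414) were tested in limma 3.58.1 (R 4.3.3) on log2(FPKM + 0.5), with a mean-variance trend and Benjamini-Hochberg adjustment, and called at an adjusted p under 0.05. The pseudocount understates changes of low genes. Unless stated otherwise, genes were counted as above or below both libraries of the other group on the FPKM as deposited. With 2 against 2 libraries an exact two-sided permutation test cannot go below 0.333, so none is given for single genes. The other named genes were the relatives with a mean of at least 5 FPKM and the partners with the 2 largest changes in each direction. The members and lists were chosen with earlier results of these data known. Alternatives were another pseudocount, filter, normalization or weighting, a replicate block, and leaving out each library.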

Additional observations from a re-analysis of the deposited data

How the results depend on the processing

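No gene was called under any setting, and adjusted p-values of the members ranged from 0.513 to 1.00. Genes at an unadjusted p under 0.05 numbered 974, and 1538 with no filter, where more genes are tested. They numbered 687 to 1720 with 1 library left out, the most without WT replicate 1. Members under that p numbered 1 (S100a10), 0 with no filter, 0 after quantile normalization, 0 when scaled by reads on genes, 2 with no trend (S100a4 and S100a10), and 0 to 1 with 1 library left out, where the 1 was S100a4 without WT replicate 2 and S100a8 without KO replicate 1. The cause was not tested. With the replicate block, 932 genes and 0 members were under that p. Deviations of same-numbered libraries had a correlation of -0.0017 over all genes tested, so they did not go together over the genes as a whole. A single value over all genes cannot tell whether same-numbered pools shared a condition that touched some genes.

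After quantile normalization log2 fold changes reversed for S100a6 (-0.055), Anxa3 (-0.039), S100a1 (-0.047), S100a13 (-0.011) and S100a16 (-0.055), and when scaled by reads on genes, a setting chosen after seeing the data, for Anxa3 (-0.036), S100a13 (-0.024), S100a16 (-0.047) and Anxa7 (-0.0018). That scaling moved the median of all genes from 0.0071 to -0.057. With 1 library left out the sign changed for 6 of 10 members: S100a6 (-0.36 to 0.55), S100a8 (-0.041 to 0.83), S100a9 (-0.68 to 0.64), Anxa1 (-0.26 to 0.45), Anxa2 (-0.42 to 0.32) and Anxa3 (-0.30 to 0.37). It also changed for S100a1 (-0.067 to 0.31), S100a13 (-0.14 to 0.24), S100a16 (-0.16 to 0.21), Anxa6 (-0.37 to 0.093), Anxa7 (-0.044 to 0.18) and Anxa11 (-0.035 to 0.19). The median over the members ranged from -0.20 to 0.40. With 1 library left out S100a11 ranged from 0.056 to 0.32, Anxa5 from -0.41 to -0.043, Anxa4 from 0.16 to 0.57, Cd36 from 0.39 to 1.55, Plau from -0.57 to -0.20 and Trpv5 from -0.55 to -0.042. S100a10, S100a11 and Anxa5 kept their sign in all settings and S100a4 in all but the filter of at least 1 FPKM, which drops it, though S100a4, at 2 to 10 reads a library, ranged from 0.46 to 1.26.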
